A study of Bos indicus x Bos taurus with 78 samples.

Results

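The 4 miRNAs described here are bta-miR-126-3p, bta-miR-126-5p, bta-miR-221 and bta-miR-222 (bta for Bos taurus, left out from here on), chosen by name as 4 of the 1030 mature miRNA rows of a count table from beef muscle. Small RNA was sequenced from Longissimus lumborum (loin muscle) biopsies of 78 male Bos indicus x Bos taurus steers, to profile miRNAs that may go with dark-cutting, a defect in which beef is dark, firm and dry. Of the steers, 53 were labelled normal and 25 dark-cutting, the latter graded 1/4 (8 steers), 1/3 (9 steers), 1/2 (3 steers), 2/3 (4 steers) and 3/4 (1 steer). No treatment, age or batch is given by the labels, and each steer is a separate animal with 1 library.

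A miRNA is a short RNA that, loaded into an Argonaute protein, lowers the translation and stability of messenger RNAs matching its seed. miR-126 lies in an intron of EGFL7, a gene of endothelial cells, which line blood vessels. Its 3p strand is known to repress SPRED1 and PIK3R2, brakes on signalling by the growth factor VEGF, and the adhesion molecule VCAM1, and its 5p strand to repress the Notch inhibitor DLK1. miR-221 and miR-222 are made from 1 gene cluster, share a seed, and are known to repress the receptor KIT and the cell cycle inhibitor CDKN1B in vessel cells. In muscle, capillaries run along every fibre, and miR-221 and miR-222 are also known from dividing muscle precursors.

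All 4 miRNAs were detected in all 78 steers, but at very different levels. The 3p strand of miR-126 had a mean of 15600 reads per library, or 4829 CPM (reads scaled to a common library total), and ranked 9 of 1030 rows. The 5p strand had a mean of 1832 reads, or 560 CPM, and ranked 36. Then came miR-221 with a mean of 48.6 reads (15.04 CPM, rank 145) and miR-222 with 37.9 reads (11.6 CPM, rank 160). Mature miRNAs are nearly equal in length, so these levels were compared without a length correction. How readily each sequence was captured in library making was not measured.

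The order of the levels was the same in every steer for the first 2 places but not for the last 2. In 78 of 78 steers miR-126-3p exceeded miR-126-5p, with mean CPM 8.62 times as high, and miR-126-5p exceeded miR-221, 37.2 times as high. By contrast miR-221 exceeded miR-222 in 54 of 78 steers and equalled it in 1, and its mean CPM was 1.29 times that of miR-222. The log2 ratio of miR-221 to miR-222 averaged 0.35 with an SD of 0.59 over steers, so which of them was higher varied between single steers. The difference of their mean levels was not tested.

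The libraries held 1427817 to 4535675 reads (median 3209320), those of dark-cutting steers 2687185 to 4370459. Such depth gave 5737 to 27175 reads of miR-126-3p and 818 to 3993 of miR-126-5p, but 13 to 133 of miR-221 and 10 to 84 of miR-222. Read counting alone would give an SD of 0.012 in the log2 level of miR-126-3p and 0.036 for miR-126-5p, against 0.23 for miR-221 and 0.26 for miR-222. Values of the last 2 in a single steer are therefore coarse. 1 library, normal replicate 19, stood apart in miR-451 of red blood cells (11.39 log2 CPM) and in miR-142-5p of blood-forming cells (7.19 log2 CPM), being the highest of 78 in both. In the 4 miRNAs it ranked 17, 15, 42 and 42 from the highest, inside the range of the others.

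The label endothelial could not be tested with these libraries, because the only endothelial markers listed are the strands of miR-126 themselves. Both strands were abundant. The miRNAs of epithelium were near 0, which does not bear on the label. The summed level of 5 of them was at most 2.62 CPM in any dark-cutting and 1.86 CPM in any normal steer, and miR-205 had no read in any steer. The summed level of 24 other miRNAs known from vessels ran from 8584 to 29703 CPM in normal and from 9690 to 20332 CPM in dark-cutting steers. The biopsies were whole muscle, with 762000 to 902058 CPM from 6 muscle miRNAs over the normal steers, so fewer cells of a type and less RNA per cell cannot be told apart. The counts do not show which cells miR-221 and miR-222 came from, and their levels did not follow miR-126 closely in the correlations given further on, so the miRNAs are named singly here and not as 1 endothelial set.

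In miR-126-3p, the dark-cutting steers overlapped the normal steers almost throughout, and their mean was slightly lower with TMM scaling and close to equal with total count scaling. Its level, as log2 CPM scaled by TMM, had a lowest, median and highest value of 11.58, 12.22 and 12.84 in the 53 normal steers. In the 25 dark-cutting steers the lowest, median and highest values were 11.44, 12.17 and 12.59. Of the dark-cutting steers, 10 of 25 were above the normal median, and 1 was below every normal steer, replicate 5 of degree 1/3. The log2 fold change of dark-cutting against normal was -0.10 ± 0.07 (SE, 95% interval -0.24 to 0.03), or 0.930-fold with an interval of 0.846 to 1.02, and it missed the threshold of 0.05 (edgeR, adjusted p = 0.544). With total count scaling the log2 fold change was -0.0088 ± 0.095 (SE), and the median unscaled level was 4592 CPM in normal and 4767 CPM in dark-cutting steers, the opposite order to the TMM medians.

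The 5p strand, cut from the same hairpin, showed no clearer difference. Its lowest, median and highest log2 CPM were 8.40, 9.09 and 9.75 in normal steers. Dark-cutting steers had 8.45, 9.12 and 9.56, and none was outside the normal range. Of them, 13 of 25 were above the normal median. The log2 fold change was -0.05 ± 0.07 (SE, 95% interval -0.19 to 0.08) with TMM scaling and turned to 0.06 ± 0.10 with scaling by total count (edgeR, adjusted p = 0.818 and 0.776).

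For miR-221, lowest, median and highest log2 CPM were 2.72, 3.79 and 4.88 in normal and 2.85, 3.79 and 4.48 in dark-cutting steers. The medians were equal to 2 decimals, no dark-cutting steer was outside the normal range, and 13 of 25 were above the normal median. The log2 fold change was 0.01 ± 0.12 (SE, 95% interval -0.22 to 0.25, edgeR adjusted p = 0.971), and 0.11 ± 0.15 with total count scaling. For its cluster partner miR-222 the values were 2.25, 3.45 and 4.82 in normal and 1.91, 3.56 and 4.41 in dark-cutting steers. There, 15 of 25 dark-cutting steers were above the normal median and 1 was below all normal steers, replicate 5 of degree 1/4 with 10 reads. Its log2 fold change was 0.09 ± 0.13 (SE, 95% interval -0.17 to 0.35, edgeR adjusted p = 0.818), and 0.18 ± 0.14 with total count scaling.

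None of the 4 passed the test, and 0% of the 252 miRNAs tested in this comparison did (0 by edgeR, DESeq2 and limma-voom alike), with 23 of 252 at an unadjusted p under 0.05 in edgeR. The smallest unadjusted p of the 4 was 0.132, for miR-126-3p (edgeR). On the TMM scale the intervals bound what could have been missed. For miR-126-3p, levels below 0.846 or above 1.02 times normal lay outside the 95% interval. For miR-222, levels from 0.892 to 1.27 times normal lay inside it. These bounds hold for TMM scaling only: with total count scaling the log2 fold change of miR-126-3p was -0.0088 ± 0.095 (SE). The authors' deposited table gives log2 fold changes of -0.10 for miR-126-3p, -0.05 for miR-126-5p, 0.02 for miR-221 and 0.09 for miR-222, with adjusted p of 0.822, 0.992, 0.993 and 0.992.

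**Figure D1:**
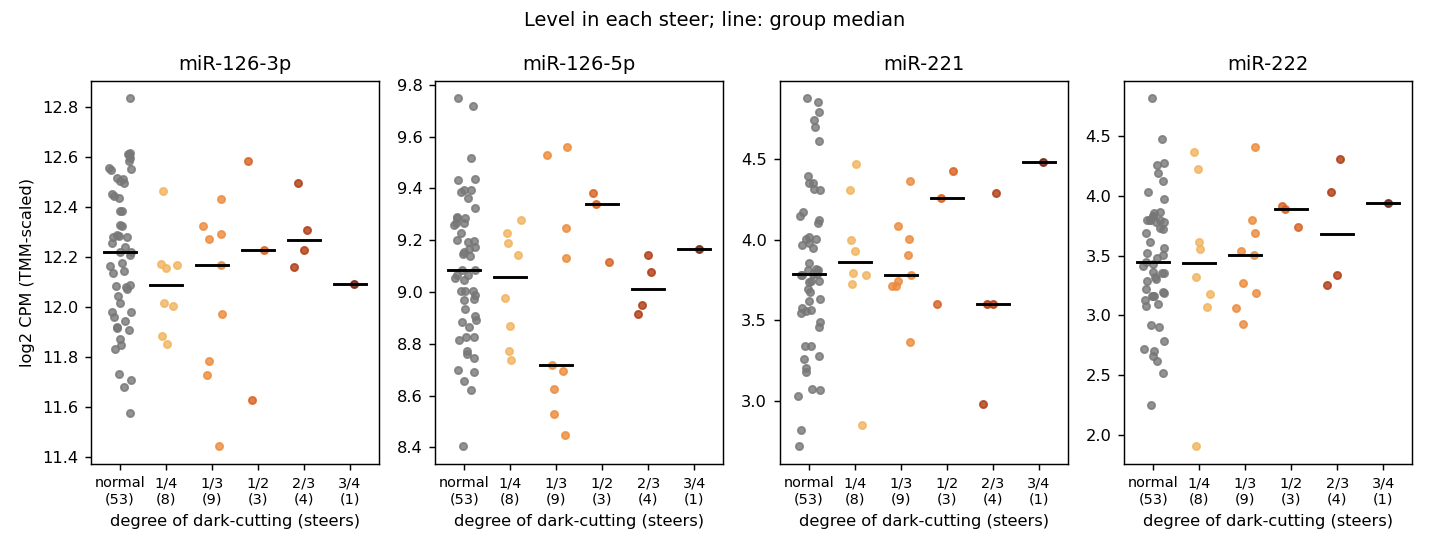
Level of each of the 4 miRNAs (log2 CPM, TMM-scaled, vertical axis with its own range in each panel) by degree of dark-cutting, with 1 point per steer, the number of steers in brackets and a line at each group's median. The points of every degree lie within the normal range except 1 steer of degree 1/3 in miR-126-3p and 1 of degree 1/4 in miR-222.

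Across the degrees, all 4 comparisons used the same 53 normal steers, so they are not independent of each other. At degree 1/4 (8 steers), lowest, median and highest log2 CPM were 11.85, 12.09 and 12.46 for miR-126-3p, and 1 of 8 steers was above the normal median. The corresponding levels were 8.74, 9.06 and 9.28 for miR-126-5p. For miR-221 they were 2.85, 3.86 and 4.47, and for miR-222 1.91, 3.44 and 4.37. The log2 fold change was -0.15 ± 0.11 (SE) for miR-126-3p, -0.08 ± 0.11 for miR-126-5p, -0.02 ± 0.21 for miR-222 and -0.0011 ± 0.19 for miR-221, of which the last turned to 0.04 with total count scaling. None of the 4 passed, and 0% of 272 miRNAs did (edgeR, 3 at an unadjusted p under 0.05, and 0 calls by DESeq2 and limma-voom).

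At degree 1/3 (9 steers) miR-126-5p was spread more widely than at degree 1/4. Its lowest, median and highest log2 CPM were 8.45, 8.72 and 9.56, and 4 of 9 steers were above the normal median. The 3p strand there had 11.44, 12.17 and 12.43, miR-221 had 3.37, 3.78 and 4.36, and miR-222 had 2.93, 3.51 and 4.41. Log2 fold changes were -0.15 ± 0.11 (SE) for miR-126-3p and -0.09 ± 0.11 for miR-126-5p, -0.03 ± 0.18 for miR-221 and -0.01 ± 0.20 for miR-222, and with total count scaling all 4 turned positive, between 0.01 and 0.12. None passed, beside 0% of 272 miRNAs (edgeR, 25 at an unadjusted p under 0.05, and 0 calls by DESeq2 and limma-voom).

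At degree 1/2, replicates 1, 2 and 3 had 11.63, 12.59 and 12.23 log2 CPM of miR-126-3p and 9.34, 9.38 and 9.12 of miR-126-5p. The first of these steers was low in the 3p strand and high in the 5p strand. For miR-221 the 3 steers had 4.26, 3.60 and 4.43 log2 CPM from 98, 43 and 82 reads, and for miR-222 3.89, 3.92 and 3.74 from 75, 54 and 50 reads. All 3 were above the normal median in miR-126-5p and miR-222, and all were inside the normal range. Log2 fold changes against normal were 0.21 ± 0.17 (SE) for miR-126-5p, 0.27 ± 0.28 for miR-221 and 0.34 ± 0.31 for miR-222, with none past the threshold, beside 0% of 272 miRNAs (edgeR, adjusted p = 0.994 for each of the 3, and 13 miRNAs at an unadjusted p under 0.05). These 3 became 0.38, 0.40 and 0.51 with total count scaling. For miR-126-3p the value was -0.0010 ± 0.18, and it turned to 0.16 with total count scaling and to 0.22 without replicate 1, and it was -0.27 without replicate 2. For miR-221 the value was 0.10 without replicate 3 and 0.45 without replicate 2.

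At degree 2/3, replicates 1 to 4 had 12.31, 12.50, 12.23 and 12.16 log2 CPM of miR-126-3p and 9.08, 8.95, 9.14 and 8.92 of miR-126-5p. The pair of cluster partners differed more between these steers. miR-221 had 4.29, 3.60, 3.60 and 2.98 log2 CPM, from 74, 30, 34 and 22 reads, and miR-222 had 4.31, 4.03, 3.34 and 3.26, from 75, 41, 28 and 27 reads. Replicate 1 was the highest of the 4 in both, and all values lay within the normal range. Log2 fold changes were -0.02 ± 0.15 (SE) for miR-126-3p, -0.17 ± 0.15 for miR-126-5p, -0.31 ± 0.27 for miR-221 and 0.17 ± 0.28 for miR-222, of which the first turned to 0.04 with total count scaling. All 4 had an adjusted p of 0.988 in edgeR, beside 0.368% of 272 miRNAs called. Without replicate 1 the value was -0.52 for miR-221 and 0.019 for miR-222. For miR-221 it was -0.19 without replicate 3 and -0.14 without replicate 4, and for miR-222 it was 0.072 without replicate 2, 0.39 without replicate 3 and 0.31 without replicate 4. The 1 call, miR-1260b at 1.54 ± 0.34 (SE), is not one of the 4 and is named because it was called.

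The 1 steer of degree 3/4 allows no test. It had 12.09 log2 CPM of miR-126-3p, 9.17 of miR-126-5p, 4.48 of miR-221 (100 reads) and 3.94 of miR-222 (68 reads). These were -0.43, 0.29, 1.28 and 0.91 normal SDs from the normal mean, and 11 of 53 normal steers were at least as far from it in miR-221.

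**Figure D2:**
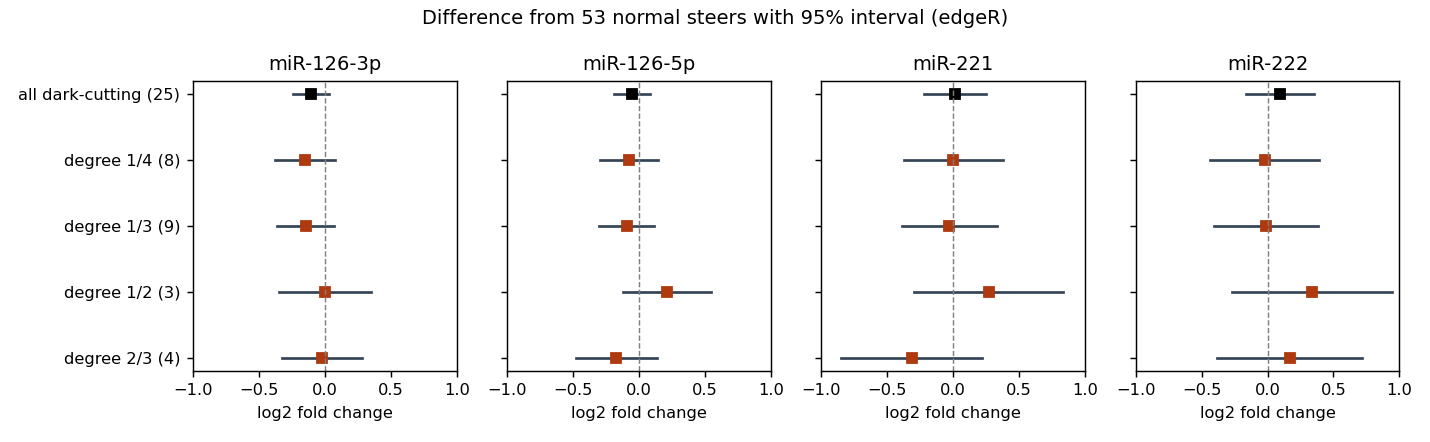
Log2 fold change of each miRNA against the 53 normal steers (horizontal axis), for all dark-cutting steers (black) and for each degree with at least 3 steers (red), with 95% intervals from edgeR. Every interval includes 0, and the intervals of degrees 1/2 and 2/3, from 3 and 4 steers, are the widest in each panel.

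The graded question was also asked with a slope on the degree, where normal steers count as 0. Per unit of degree the log2 slope was -0.16 ± 0.16 (SE) for miR-126-3p and -0.09 ± 0.16 for miR-126-5p, which turned to 0.06 and 0.16 with total count scaling. It was 0.04 ± 0.27 for miR-221 and 0.30 ± 0.29 for miR-222, which became 0.27 and 0.54 with total count scaling. None passed (edgeR, adjusted p between 0.708 and 0.982), beside 0.368% of 272 miRNAs called, the 1 call being again miR-1260b. Among the 25 dark-cutting steers alone the slopes were 0.23 ± 0.34 (SE), 0.04 ± 0.38, 0.05 ± 0.53 and 0.65 ± 0.62, in the same order, with 0% of 251 miRNAs called (edgeR, 9 at an unadjusted p under 0.05, and 0 calls by DESeq2 and limma-voom). Scaling by total count in place of TMM moved the median log2 fold change of all miRNAs from -0.01 to 0.10 for dark-cutting against normal and the median slope from -0.04 to 0.19. Both strands of miR-126 were below these medians on both scales, in the comparison and in the slope.

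The animals' title numbers fall into a range below 600 (18 normal and 8 dark-cutting steers) and a range from 600 (35 and 17), which the labels do not call a batch. Within the lower range the log2 fold change of dark-cutting against normal was 0.40 ± 0.21 (SE) for miR-222 and 0.22 ± 0.22 for miR-221. Within the upper range the values were -0.04 ± 0.15 and -0.07 ± 0.14. The slope on the degree of miR-222 was 1.10 ± 0.49 (SE, edgeR p = 0.0328, adjusted p = 0.517) in the lower and 0.014 ± 0.33 (adjusted p = 0.980) in the upper range. That of miR-221 was 0.62 ± 0.53 and -0.17 ± 0.29, and the difference between the slopes was not tested. The difference between the ranges in dark-cutting against normal was -0.42 ± 0.27 (SE, edgeR adjusted p = 0.852) for miR-222 and -0.26 ± 0.25 (adjusted p = 0.943) for miR-221, and none of 252 miRNAs passed that test (10 at an unadjusted p under 0.05). For miR-126-3p the lower and upper ranges gave -0.15 ± 0.11 and -0.06 ± 0.09, and for miR-126-5p -0.05 ± 0.12 and -0.03 ± 0.09.

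The strands of miR-126 come from 1 hairpin, so their ratio within a library needs no scaling between libraries. The log2 ratio of 3p to 5p reads averaged 3.12 with an SD of 0.31 over the 78 steers, of which read counting accounts for an SD of 0.04. It ran from 2.29, in replicate 1 of degree 1/2, to 3.99, in replicate 8 of degree 1/3. Both extremes were thus dark-cutting steers. It averaged 3.09 ± 0.36 (SD) over 25 dark-cutting steers and 3.13 ± 0.28 over 53 normal ones, a difference of -0.05 ± 0.08 (SE, two-sided permutation p = 0.552, adjusted p over 4 ratio tests = 0.770). The slope of the log2 ratio on the degree was -0.06 ± 0.17 (SE, permutation p = 0.713, adjusted p = 0.770). Within the number ranges the difference was -0.09 ± 0.15 below 600 and -0.03 ± 0.09 from 600. The ratio itself averaged 2.99 ± 0.30 (SD) over the 26 steers below 600 and 3.18 ± 0.30 over the 52 from 600. In normal steers alone it averaged 3.02 and 3.19, and the gap between the ranges was not tested. The ratio had a Spearman rho of -0.25 with log10 total count, whose part in its spread was not tested.

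Set beside the other miRNAs with both strands counted, the strand ratio of miR-126 varied little between steers. Over 17 miRNAs whose strands each had a mean of at least 10 reads, its SD of 0.31 was the third from the lowest, after miR-199a (0.28) and miR-423 (0.29). The highest was that of miR-27a at 0.91, whose 5p strand had a mean of 11.1 reads. After the SD expected from counting was removed, miR-126 kept place 3 of 17, at 0.31. This order is a description of 78 libraries and was not tested.

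**Figure D3:**
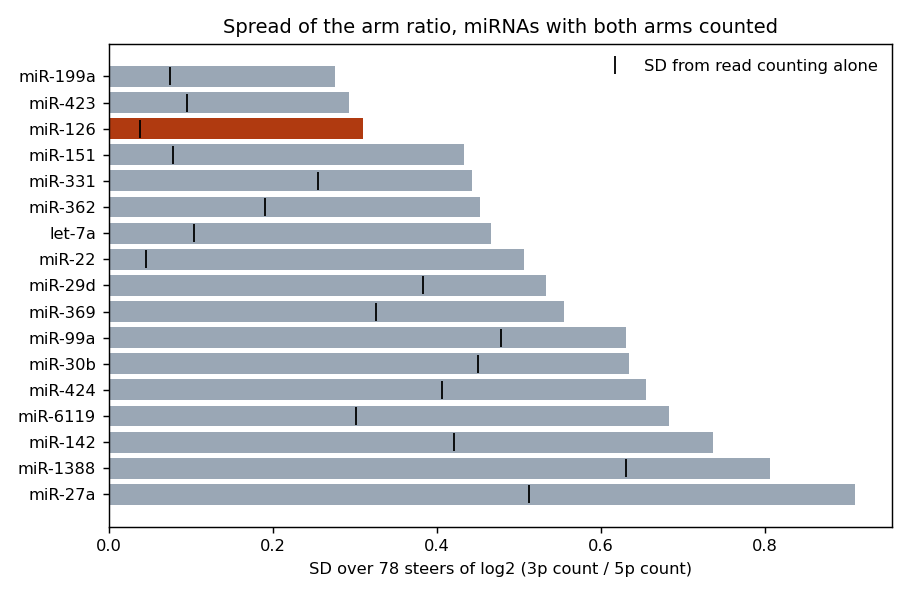
SD over 78 steers of the log2 ratio of 3p to 5p reads (bars, horizontal axis from 0) for the 17 miRNAs with both strands at a mean of at least 10 reads, miR-126 in red, with black ticks at the SD expected from read counting alone. The bar of miR-126 is the third shortest, at 0.31, and its counting SD of 0.04 is a small part of it.

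The cluster partners were also compared by their ratio. The log2 ratio of miR-221 to miR-222 ran from -0.80, in normal replicate 35, to 2.24, in replicate 5 of degree 1/4, the steer with 10 reads of miR-222. Its SD was 0.59, where counting alone gives 0.35, which leaves an SD of 0.48. Dark-cutting steers averaged 0.32 ± 0.60 (SD) and normal steers 0.37 ± 0.59, a difference of -0.04 ± 0.14 (SE, two-sided permutation p = 0.770, adjusted p over the 4 ratio tests = 0.770). The slope on the degree was -0.27 ± 0.32 (SE, permutation p = 0.399, adjusted p = 0.770). The 4 steers of degree 2/3 had log2 ratios of -0.02, -0.44, 0.28 and -0.29, all inside the normal range. Within number ranges the difference was -0.18 ± 0.21 below 600 and 0.02 ± 0.19 from 600.

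Between steers, the strands of miR-126 were less variable than most miRNAs and the cluster partners more variable. The biological coefficient of variation, edgeR's estimate of the spread beyond counting, was 19.9% for both miR-126-3p and miR-126-5p, ranks 52 and 53 from the lowest of 252. It was 31.4% for miR-221 (rank 165) and 33.6% for miR-222 (rank 189), with a median of 26.5% over all tested miRNAs. The SDs of the log2 levels themselves were 0.29, 0.28, 0.48 and 0.53.

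Strands of the same hairpin and partners of the same cluster varied together across the 78 steers, and miR-221 did not vary with either strand of miR-126 on the TMM scale. For miR-126-3p with miR-126-5p, Pearson's r was 0.41 and Spearman's rho 0.45 (permutation p = 0.00019 and 4e-05, adjusted over 6 pairs 0.00114 and 0.00024). For miR-221 with miR-222 they were 0.38 and 0.39 (permutation p = 0.00053 for both, adjusted 0.00159). For miR-126-3p with miR-222 they were 0.24 and 0.26, with adjusted permutation p of 0.0699 and 0.0474, so that only the rank correlation passed. The other 3 pairs had r between -0.10 and -0.06 and rho between -0.06 and 0.00, with adjusted p from 0.552 to 0.972 (permutation).

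Leaving out the 2 steers farthest from the median of the first-named miRNA gave r of 0.39 for the strands, 0.38 for the cluster partners and 0.27 for miR-126-3p with miR-222. Without normal replicate 19, chosen for this after its values were seen, r was 0.40, 0.38 and 0.24. Within the number ranges the rho of the strands was 0.31 below 600 (26 steers, permutation p = 0.121) and 0.53 from 600 (52 steers, permutation p = 5e-05). That of the cluster partners was 0.55 below 600 (permutation p = 0.00409, adjusted 0.0245) and 0.29 from 600 (permutation p = 0.0393, adjusted 0.118). By phenotype, the strands had a rho of 0.52 in 53 normal steers and 0.20 in 25 dark-cutting steers (permutation p = 0.00012 and 0.327), and the difference between these was not tested. The cluster partners had 0.37 in normal and 0.39 in dark-cutting steers. For miR-126-3p with miR-222, rho was 0.27 below 600 and 0.22 from 600 (adjusted permutation p = 0.377 and 0.243). For the same pair it was 0.32 in normal and 0.10 in dark-cutting steers (adjusted permutation p = 0.0367 and 0.635).

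**Figure D4:**
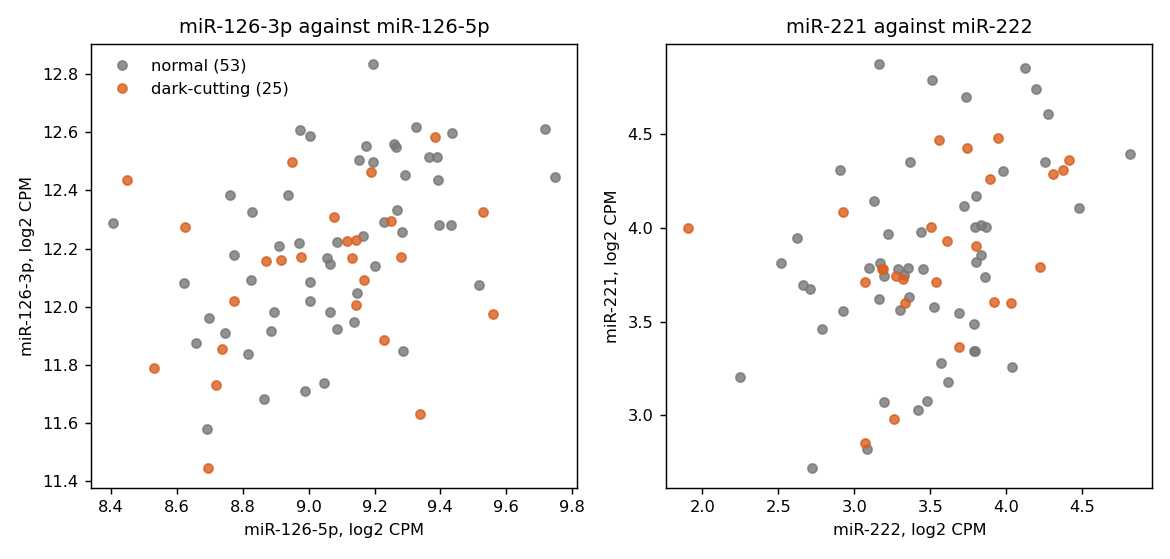
Log2 CPM (TMM-scaled, both axes) of miR-126-3p against miR-126-5p (left) and of miR-221 against miR-222 (right), with 1 point per steer, normal steers in grey and dark-cutting steers in orange. Both clouds slope upwards, with r of 0.41 and 0.38 over 78 steers, and the colours overlap.

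The scale mattered for these correlations. When levels were divided by the total count in place of TMM, rho rose to 0.73 for the strands and 0.54 for the cluster partners. On that scale miR-221 had a rho of 0.39 with miR-126-3p and 0.45 with miR-126-5p, and miR-222 had 0.45 and 0.31 with them. All 6 pairs then passed (permutation, largest adjusted p = 0.0109 for r and 0.00598 for rho). On that scale a lower share of miR-1 raises all other miRNAs of a library together. Permuting steers does not allow for this, so these passes cannot tell it from a shared change of the pairs themselves. The level of miR-1, the muscle miRNA that fills most of each library, had a rho of -0.73 with miR-126-3p and -0.72 with miR-126-5p on the total count scale, and -0.03 and -0.25 with TMM. With miR-1 left out of the libraries before TMM scaling, the rho of the strands was 0.48 and that of the cluster partners 0.37.

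A set of 10 markers of other cell types moved with the 4 miRNAs to different degrees. Values are Spearman's rho over 78 libraries on the TMM scale, with no test. For miR-126-3p the highest of the 10 were miR-142-5p of blood-forming cells at 0.58, miR-143 of smooth muscle and pericytes at 0.50, and miR-223 of myeloid cells at 0.38. The lowest of the 10 was miR-199a-3p of fibroblasts at -0.39. Markers of the same cells did not go together: miR-145 of smooth muscle had -0.02 and miR-21-5p of fibroblasts -0.04. The red blood cell markers miR-451 and miR-486 had 0.29 and -0.23. The muscle miRNAs among the 10, miR-1 and miR-133a, had -0.03 and 0.11. Outside the 10, miR-208b, also of skeletal muscle, had 0.62 with miR-126-3p. The 5p strand had 0.17 with miR-142-5p, -0.04 with miR-143, 0.29 with miR-223 and -0.31 with miR-199a-3p, and its highest values were 0.37 with miR-133a of muscle and 0.37 with log10 total count. The strands of 1 hairpin thus had unlike values with miR-143 and with depth. The part of blood, pericytes or depth in these levels was not tested.

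For miR-221 the highest rho among the 10 markers was 0.41 with miR-145, the partner of miR-143 in smooth muscle, followed by 0.36 with miR-199a-3p. The lowest of the 10 was -0.30 with miR-1. Outside the 10, miR-214 of fibroblasts had 0.51 and miR-155 of white blood cells 0.45 with miR-221. Both are named for being among the 5 nearest to miR-221. Markers of the same cells within the 10 were lower: miR-21-5p had 0.21, miR-142-5p 0.22 and miR-223 0.10. In smooth muscle, miR-143 had 0.22. For miR-222 the highest of the 10 were 0.37 with miR-21-5p of fibroblasts and inflamed tissue, 0.33 with miR-143 and 0.31 with miR-145. Outside the 10, miR-146a of white blood cells, named as 1 of the 5 nearest to miR-222, had 0.37 with it. Within the 10, miR-142-5p had 0.30 and miR-223 0.10 with miR-222. In the number ranges the rho of miR-221 with miR-223 was 0.54 below 600 and -0.15 from 600, so single values in this set differ with the animals taken.

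**Figure D5:**
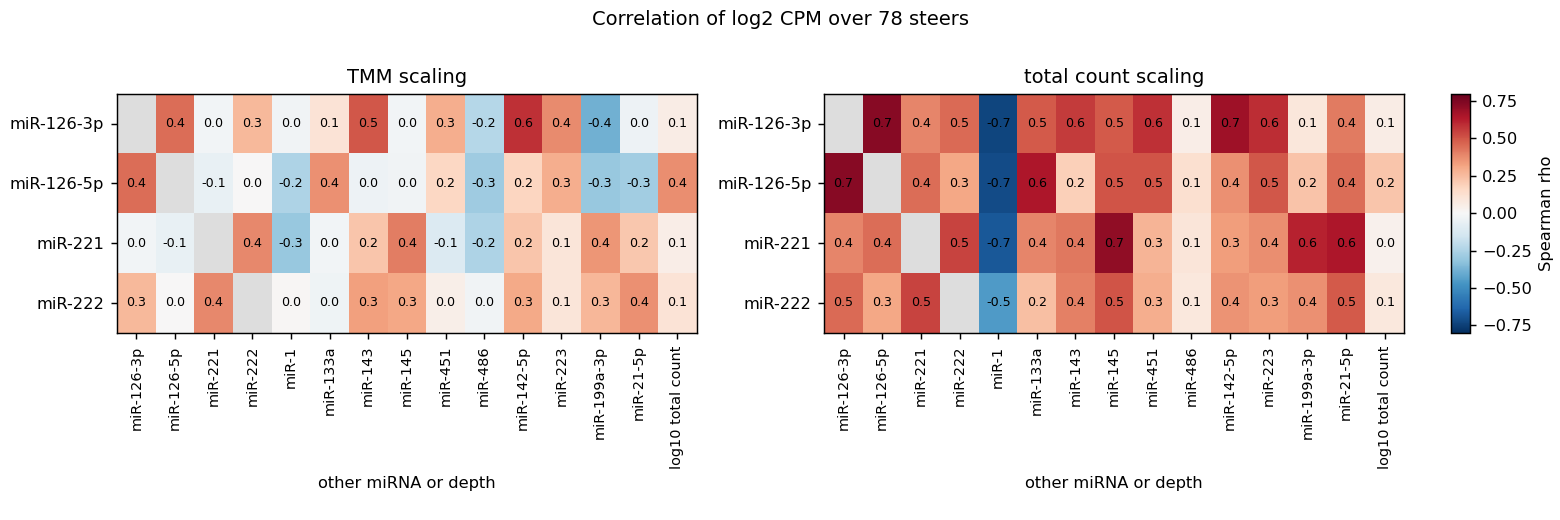
Spearman's rho over 78 steers of each of the 4 miRNAs (rows) with the others, 10 marker miRNAs and log10 total count (columns), with TMM scaling on the left and total count scaling on the right. Red is positive and blue negative. With total count scaling the column of miR-1 is blue in all 4 rows, from -0.73 to -0.46, and nearly all other columns are red.

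Of 251 other tested miRNAs, those most like miR-126-3p in level across steers were miR-374a (rho 0.62), miR-208b (0.62), miR-16b (0.61), miR-142-5p (0.58) and miR-148b (0.56). Its own 5p strand came at place 19. Most like miR-126-5p were miR-29c (0.57), miR-374a (0.56), miR-2285bf (0.51), miR-362-3p (0.47) and miR-374b (0.46), with the 3p strand at place 8. For miR-221 they were miR-214 (0.51), miR-155 (0.45), miR-218 (0.43), miR-145 (0.41) and miR-455-3p (0.39), with miR-222 at place 6 and the strands of miR-126 at places 138 and 160. For miR-222 they were miR-3432a (0.45), let-7i (0.41), miR-221 (0.39), miR-146a (0.37) and miR-21-5p (0.37). Only miR-374a was among the nearest 5 of both strands of miR-126. The median rho over all 251 others lay between -0.03 and 0.02 for the 4 miRNAs.

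Other vascular miRNAs were read beside them: of the 24 listed, 22 were tested in dark-cutting against normal steers. None passed, beside 0% of all 252. Of these 22, 8 were above and 14 below 0, with a median log2 fold change of -0.01, as over all miRNAs (-0.01). With total count scaling 18 of 22 were above 0, at a median of 0.11 beside 0.10 over all miRNAs. The most abundant were miR-24-3p at -0.06 ± 0.08 (SE), miR-27b at 0.03 ± 0.05, miR-10b, a regulator of vessel sprouting, at -0.03 ± 0.06, and miR-23b-3p at 0.11 ± 0.06. For the slope on the degree, 23 were tested, none passed, and 9 were above 0, with a median of -0.04 beside -0.04 over all miRNAs. With total count scaling 21 of those 23 were above 0.

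Among the marker lists of other cells, none had a member past the threshold in dark-cutting against normal steers. All 6 white blood cell miRNAs were below 0, with a median log2 fold change of -0.20, where 136 of all 252 miRNAs were below 0. Of the 6, miR-142-5p, which varied with miR-126-3p, was at -0.38 ± 0.13 (SE, edgeR adjusted p = 0.277). The normal steers include replicate 19, the highest of 78 in miR-142-5p. The summed level of the 6 ran from 72.8 to 391 CPM in normal and from 76.2 to 264 CPM in dark-cutting steers. All 5 fibroblast miRNAs were below 0 at a median of -0.10, with a summed level of 3476 to 13036 CPM in normal and 3084 to 6506 CPM in dark-cutting steers. With total count scaling, 1 of the 6 and 2 of the 5 were above 0. In smooth muscle, miR-143 was at -0.23 ± 0.12 (SE) and miR-145 at 0.07 ± 0.10. Of the 6 muscle miRNAs 2 were above and 4 below 0, at a median log2 fold change of -0.07. The 3 red blood cell miRNAs had a median of -0.52: miR-144 was at -0.86 ± 0.27 (SE, edgeR adjusted p = 0.182, the smallest of the 252), miR-451 at -0.52 ± 0.25 and miR-486 at 0.08 ± 0.09, with normal replicate 19 among the normal steers. The miRNAs of epithelium and the liver miRNA miR-122 were too rare to be tested. The part of these cells in the values of the 4 miRNAs was not tested.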

How the data were processed

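Small RNA libraries of 78 biopsies were prepared with a NEXTflex kit, per the labels' protocols. Trimmomatic 0.32, FastQC and DESeq2 1.34.0 are named in the submitters' processing notes. What aligned and counted the reads, and against which reference or build, was not given in the sources used here. No position or sequence is printed. The deposited matrix holds raw read counts per mature miRNA and steer, per the file headers and values, and 21 rows repeat the counts of an earlier row, none of them among the 4 miRNAs. A table deposited by the authors gives the mean normalized signal, log2 fold change, Wald score and p-value with its adjusted value per miRNA. It names no contrast, and a DESeq2 1.42.0 fit of the phenotype on the 542 rows with at least 10 reads in all gave its log2 fold changes within 2.14e-08.

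The tests on counts were those of edgeR 4.0.16 under R 4.3.3 (robust quasi-likelihood F test, TMM scaling, Benjamini-Hochberg adjustment over all miRNAs tested, threshold 0.05). The phenotype comparison used filterByExpr with a minimum count of 10, and degrees and slopes needed the equivalent of 10 counts in 8 libraries and 15 in all. Log2 CPM had a prior count of 2 and log2 ratios a pseudocount of 0.5. Ratios and correlations used two-sided permutation tests with 100000 resamples (scipy 1.17.1). Limma-voom used limma 3.58.1. Total counts set the precision of rare miRNAs, and counting SDs cover counting error only. No library was a near copy of another: chi-square per degree of freedom was at least 9.43 in 3003 pairs. Groups came from the phenotype label, and replicate numbers, given in accession order, pair no steers. The edgeR tests were checked on simulated counts, and the permutation tests on random Gaussian values, not on counts. The 4 miRNAs and the lists were chosen with earlier results of these data known. The naming rule took the 4 miRNAs, the 5 with the highest rho to each, and listed miRNAs that passed the test or were most abundant.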

Additional observations from a re-analysis of the deposited data

Results flagged for a closer look

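Of the 8 steers of degree 1/4, replicate 2 had the lowest miR-221 at 2.85 log2 CPM, and its gap to the next steer was larger than Dixon's 95% limit for a group of that size allows. This was 1 of 18 sets of values examined. They came from the groups of 4 to 10 steers (degrees 1/4, 1/3 and 2/3), in each miRNA and each of the 2 ratios. Chance flags about 1 in 20, and these sets share steers and are not independent. The steer had 28 reads of miR-221.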

How the results depend on the processing

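In 181 of 208 refits, the log2 fold change of a member kept its direction and stayed short of the threshold. In the other 27 only the direction changed. The smallest adjusted p of a member in any refit was 0.393, by edgeR or the other tools. Of the ratio tests 11 of 12 refits and of the correlations 21 of 24 were likewise unchanged in direction and call. For the correlations the call was on rho, and 6 of the 24 refits, with a prior count of 0.5, kept every rank and could not change it. The number ranges and phenotypes are not among the 24. There the strands did not pass below 600 (adjusted permutation p = 0.362). No pair passed in dark-cutting steers alone (smallest adjusted permutation p for rho = 0.348). With total count scaling, dark-cutting against normal turned to 0.057 for miR-126-5p. On that scale degree 1/4 gave 0.042 for miR-221, and degree 1/3 gave 0.0056, 0.061, 0.091 and 0.12 for miR-126-3p, miR-126-5p, miR-221 and miR-222. Degrees 1/2 and 2/3 gave 0.16 and 0.038 for miR-126-3p, and the slopes over all steers were 0.061 for miR-126-3p and 0.16 for miR-126-5p. The rho of miR-221 with miR-126-3p and miR-126-5p turned to 0.39 and 0.45, and that of miR-126-5p with miR-222 became 0.31. Each of these pairs passed on that scale and not with TMM. For miR-221 at degree 1/4, DESeq2 size factors gave 0.0072, DESeq2 0.0070, limma-voom 0.011 and no low-count filter 0.019. For miR-126-3p at degree 2/3 these gave 0.035, 0.035, 0.0014 and 0.058. At degree 1/3 limma-voom gave 0.028 for miR-221 and 0.0090 for miR-222. In animal numbers from 600, dark-cutting against normal turned to -0.066 for miR-221 and -0.040 for miR-222, the slope of miR-221 to -0.17 and the difference in the log2 ratio of miR-221 to miR-222 to 0.022. Leaving out 1 steer at a time, miR-126-3p ran from -0.27 to 0.22 at degree 1/2 and from -0.10 to 0.086 at degree 2/3. In the same way miR-126-5p ran from 0.13 to 0.29 and from -0.16 to -0.11, miR-221 from 0.10 to 0.45 and from -0.52 to -0.14, and miR-222 from 0.27 to 0.39 and from 0.019 to 0.39. The count of all miRNAs called at degree 2/3 ran from 0 to 1, being 0 without replicate 1 and without replicate 4. Called miRNAs went from 0 to 2 for dark-cutting against normal with no low-count filter. For the slope over all steers they went from 1 to 3 with DESeq2 size factors, total count scaling, no low-count filter, DESeq2 or animal numbers from 600, and to 0 with limma-voom or numbers below 600. The cause of these changes was not tested. No paired analysis was possible because replicate numbers only count the steers of a group. Depth limits miR-221 and miR-222, with as few as 13 and 10 reads, and groups of 3 and 4 steers limit degrees 1/2 and 2/3.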
